A study of Mus musculus with 10 samples.

Results

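The signals of the transforming growth factor beta (TGF-beta) and activin branch were followed through 3 stages of mouse incisor development by 10 of the 32285 genes counted. They were taken by name: the ligand genes *Tgfb1*, *Tgfb2*, *Tgfb3*, *Inhba* and *Inhbb*, the receptor genes *Tgfbr1*, *Tgfbr2*, *Tgfbr3* and *Acvr2a*, and *Tgfbi*, which codes for a secreted matrix protein. All 10 had at least 1 unique molecular identifier (UMI, which stands for 1 captured mRNA molecule) in the cells kept. The study compared wild type NMRI mouse embryos of E11.5 (stages are named by embryonic day), when the tooth is initiated, with embryos at E14.5 and E16.5, when the bud has extended and the stem cell niche takes shape. Whole mandibles of E11.5 and the incisor buds of the lower jaw from the later stages were dissociated with collagenase, and mRNA ends were counted in droplets (10x Genomics 3′ kit). No embryo carried a transgene or a deletion and none was treated. Embryos came from more than 1 litter at each stage, and the tissue of each mandible was processed separately. The buds were those of 4 mandibles at E14.5 and of 2 at E16.5. The labels list 4, 4 and 2 samples, which were deposited as 1 matrix per stage whose barcodes cannot be assigned to samples. Each stage is therefore 1 sample without a replicate. Stage, sample and, at E11.5, the dissected tissue cannot be told apart.

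TGF-beta ligands are secreted in a latent complex that holds them in the matrix until they are released. The active dimer is bound by a type II receptor, which recruits and phosphorylates a type I receptor, and the type I receptor phosphorylates the SMAD proteins SMAD2 and SMAD3, which enter the nucleus with SMAD4. Activin A is a dimer of the *Inhba* product, binds the type II receptors ACVR2A and ACVR2B, and is trapped by follistatin, the *Fst* product. In teeth, activin A is known as a signal of the mesenchyme to the epithelium, and follistatin as its antagonist.

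A cell was kept where it had 700 or more genes and its mitochondrial UMIs made up no more than 20%. This left 6573, 6091 and 4511 cells in the order of the stages, with medians of 5664, 3471 and 6260 UMIs. The stages shared between 13 and 17 barcodes, and no barcode was repeated within a stage. Lineages were called cell by cell from marker UMIs, and a lineage was used where it held at least 50 cells. Mesenchyme held 5762, 4577 and 2506 cells at the 3 stages. Endothelium held 68, 140 and 113 cells and immune cells 50 and 122 at E11.5 and E14.5. Epithelium held 787 and 1515 cells at the later stages, but only 9 at E11.5, so epithelium is not described at that stage. Erythroid cells (101) and muscle (57) were described at E11.5. Each lineage carried its own markers, which follows from the call because the same lists made it. The summed level of the epithelial list was 2242 and 2896 CPM (UMIs in each 1000000 UMIs of a group of cells) in epithelium and 8.28 to 146 in mesenchyme, and that of the mesenchymal list was 2603 to 5704 in mesenchyme and 82.1 to 298 in epithelium and endothelium. The muscle cells also carried 525 CPM of the pericyte list and 149.6 CPM of the epithelial list, and the part of these in the values of muscle was not tested. Haemoglobin and other erythroid transcripts summed to between 280 and 2224 CPM in every lineage other than erythroid cells. The part of free RNA and of doublets in these sums was not tested. Levels of genes below are in CPM, with exact 95% Poisson intervals that cover counting error only. With 1 sample per stage no test was possible, and a difference is described as passing 2-fold where the fold of CPM was at least 2 and the gene had at least 50 counts over both groups.

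The sequences just upstream of the annotated start are shown for *Inhba* and *Tgfb2*, the ligands with the most opposed levels in mesenchyme and epithelium, and for *Tgfb1*, which was measured in most lineages. RefSeq promoter sequences on build GRCm38.p6 matched 8 of the 10 genes. *Tgfb3* and *Tgfbr3* were not matched. The 250 bases before the start are written 5′ to 3′ on the strand of the gene. Capitals mark TATAAA or its complement TTTATA in *Inhba* and *Tgfb2*, and GGGCGG or its complement CCGCCC in *Tgfb1*.
Inhba, chr13:16011601-16011850, plus strand: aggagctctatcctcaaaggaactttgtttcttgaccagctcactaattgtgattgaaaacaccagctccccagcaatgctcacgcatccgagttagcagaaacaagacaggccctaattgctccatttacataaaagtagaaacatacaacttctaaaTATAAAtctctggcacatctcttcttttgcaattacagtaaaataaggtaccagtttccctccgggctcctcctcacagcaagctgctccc
Tgfb2, chr1:186705990-186706239, minus strand: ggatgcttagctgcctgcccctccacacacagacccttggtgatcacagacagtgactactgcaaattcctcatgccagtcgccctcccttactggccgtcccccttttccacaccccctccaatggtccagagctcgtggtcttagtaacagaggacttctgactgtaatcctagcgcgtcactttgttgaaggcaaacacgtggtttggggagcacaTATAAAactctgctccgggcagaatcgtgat
Tgfb1, chr7:25686752-25687001, plus strand: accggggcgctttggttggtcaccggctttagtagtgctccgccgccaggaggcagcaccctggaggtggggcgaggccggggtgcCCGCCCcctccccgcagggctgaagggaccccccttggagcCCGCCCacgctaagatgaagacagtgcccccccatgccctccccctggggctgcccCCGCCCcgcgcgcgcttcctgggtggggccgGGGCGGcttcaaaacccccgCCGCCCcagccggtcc
TATAAA was held on either strand by 2 of the 8 genes, *Inhba* and *Tgfb2*, against 12.4% of the 32851 promoters in the table. The match began 91 bases before the start of *Inhba* and 31 bases before that of *Tgfb2*. GGGCGG was held by 5 of the 8 genes (*Tgfb1*, *Inhbb*, *Tgfbi*, *Tgfbr1* and *Acvr2a*), against 32.7% of all promoters, and *Tgfb1* held 5 matches. The *Tgfb2* window overlaps an exon of the antisense gene *Gm29491* on the plus strand, and the other two windows overlap no annotated exon. These matches describe letters in the sequence only, and no measurement here bears on their use.

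**Figure D1:**
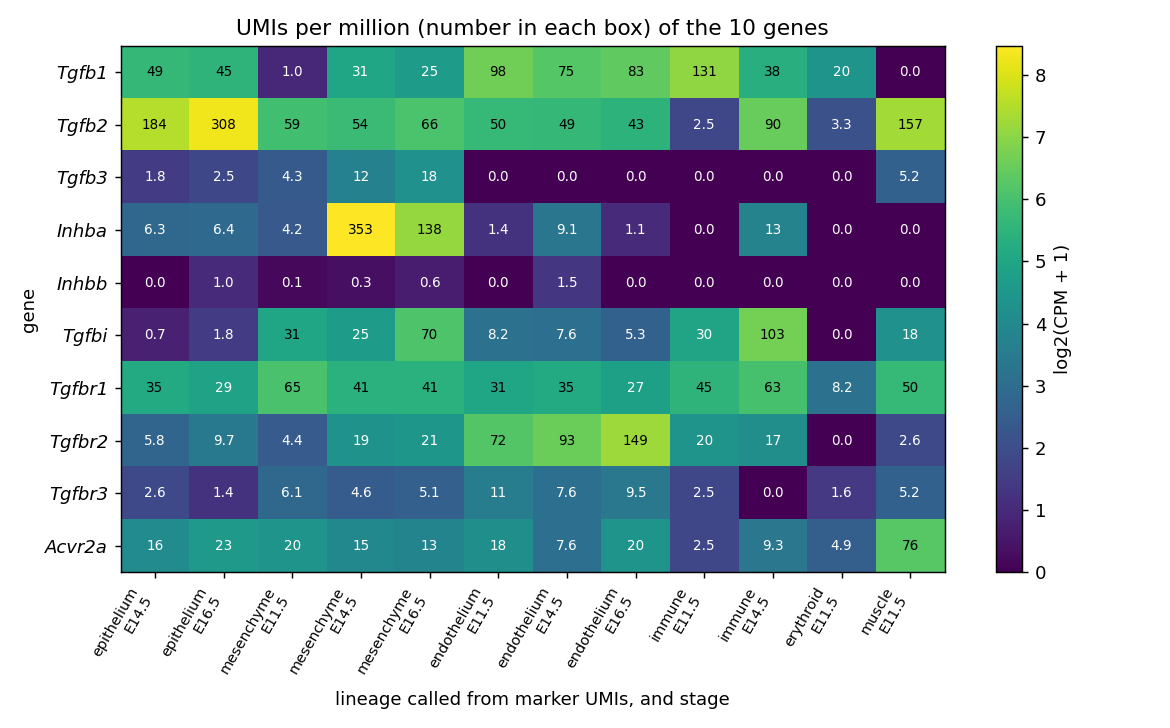
Levels of the 10 genes (rows) in the 12 combinations of lineage and stage with at least 50 cells (columns). The number in each box is the level in CPM and the colour is log2(CPM + 1). *Inhba* reaches 353 CPM in E14.5 mesenchyme and *Tgfb2* 308 in E16.5 epithelium, while *Inhbb* stays at or below 1.52 in all 12.

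*Inhba* (chr13:16011851-16031621, plus strand), which codes for the subunit of activin A, was a mesenchymal transcript of E14.5 and E16.5. Its level in mesenchyme was 4.16 CPM at E11.5 (95% interval 3.57 to 4.82, 179 counts), 353 at E14.5 (344 to 362, 6242 counts) and 138 at E16.5 (132 to 143, 2501 counts). Mesenchyme at E14.5 was thus 84.9-fold above mesenchyme at E11.5 (interval 73.1 to 99.0), and mesenchyme at E16.5 was 2.57-fold below that at E14.5 (2.45 to 2.69). The intervals of the 3 stages did not overlap.
In epithelium the level was 6.31 CPM at E14.5 (4.42 to 8.74) and 6.44 at E16.5 (5.26 to 7.80). Epithelium was 55.9-fold below mesenchyme at E14.5 (40.4 to 79.9) and 21.4-fold below it at E16.5 (17.6 to 26.3). The other lineages of E14.5 had equally few transcripts, with 9.13 CPM in endothelium (3.35 to 19.9) and 12.7 in immune cells (6.36 to 22.8), and the intervals of these 3 lineages overlapped. The part of free RNA in these low levels was not tested.
Counted by cells, 52.9% of the mesenchymal cells of E14.5 had an *Inhba* UMI at a median depth of 3256 UMIs, against 4.07% of the epithelial cells at 4586, 3.57% of the endothelial cells at 3156.5 and 4.92% of the immune cells at 6600. With each cell thinned to 2000 UMIs these shares became 41.1%, 2.12%, 1.89% and 3.48%. At E11.5 the other 4 lineages had at most 1 count each and their intervals overlapped that of mesenchyme. At E16.5 endothelium had 1 count, and its interval overlapped that of epithelium. A UMI of *Inhba* was found in 2.34% of the mesenchymal cells at E11.5 and in 47.0% of those at E16.5. Their median depths were 5904 and 5856 UMIs. Thinned to 2000 UMIs per cell, these shares were 0.665% and 22.2%.

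Within the mesenchyme, cells were divided by 3 further marker lists, for dental papilla (the mesenchyme enclosed by the epithelium, from which pulp and odontoblasts form), for osteogenic cells and for cartilage. These held 651, 486 and 39 cells at E14.5 and 626, 377 and 109 at E16.5, and the 39 cartilage cells were not used. *Inhba* reached 542 CPM in papilla cells at E14.5 (520 to 565) and 282 in osteogenic cells (258 to 307), a 1.92-fold difference (1.75 to 2.12) that stayed under 2-fold. At least 1 *Inhba* UMI was found in 85.1% of the papilla cells and 51.2% of the osteogenic cells. Their median depths were 5813 and 3393.5 UMIs. Thinned to 2000 UMIs per cell, these shares were 59.5% and 38.0%. At E16.5 the papilla was at 135 (124 to 146) and the osteogenic cells at 161 (146 to 177), so osteogenic cells were the higher group there, by 1.20-fold (1.06 to 1.35). Cartilage cells of E16.5 had 75.1 (58.0 to 95.8), the lowest of the 3 groups. At E11.5 the gene was already uneven within the mesenchyme. Cells called by the papilla list, 1639 of the 5762, had 7.57 CPM (6.27 to 9.07), and the 711 called by the cartilage list had 1.23 (0.496 to 2.54).
Single genes divided the E11.5 mesenchyme further. Cells with a UMI of *Msx1*, a transcription factor of tooth-forming mesenchyme, had 6.47 CPM of *Inhba* (5.47 to 7.59), and cells without had 1.46 (0.980 to 2.10), a 4.42-fold difference (2.95 to 6.82). Cells with a UMI of *Alx1*, a transcription factor of the anterior jaw mesenchyme, were 2.99-fold above cells without (2.17 to 4.08). Cells with a UMI of *Barx1*, which marks the region of the molars, were 2.04-fold below cells without (1.5 to 2.77). *Msx1* is also a marker of the mesenchyme list and *Barx1* of the papilla list. Cells with a UMI were deeper in each case, with medians of 7191 against 4990 for *Msx1*, 7794 against 5664 for *Alx1* and 6765.5 against 5015.5 for *Barx1*. The part of depth in these values was not tested.

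**Figure D2:**
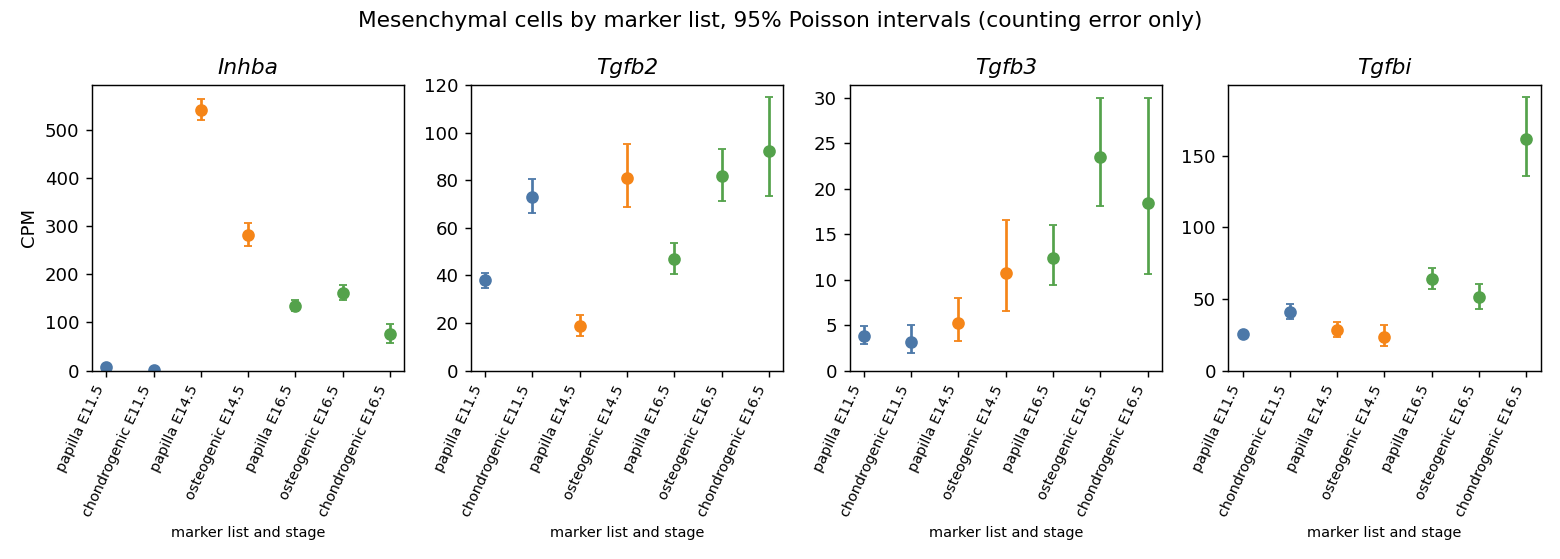
Levels in CPM (vertical axes, each from 0) of *Inhba*, *Tgfb2*, *Tgfb3* and *Tgfbi* in mesenchymal cells called by the papilla, osteogenic and cartilage marker lists. Colours separate the stages and bars are 95% Poisson intervals. *Inhba* is highest in E14.5 papilla cells at 542, and *Tgfb2* is lowest there at 18.6.

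Epithelial cells were also divided by single genes that mark parts of the tooth epithelium. *Sox2* marks the incisor stem cells, *Shh* the enamel knot and the differentiating epithelium, and *Krt15* and *Meis2* other parts of the epithelium. At E16.5 the 119 epithelial cells with a *Sox2* UMI had 35.1 CPM of *Inhba* (27.7 to 44.0, 76 counts), and the 1396 without had 2.0 (1.33 to 2.89, 28 counts). The ratio was 17.6 (11.2 to 28.1). Of the 52 epithelial cells of E16.5 with an *Inhba* UMI, 32 also had a *Sox2* UMI. The cells with *Sox2* were deeper, at a median of 10813 UMIs against 6553.5, and their summed level of mesenchymal markers was 302 CPM against 298. The part of depth and of mesenchymal transcripts was not tested. One cell held 16 of the 76 counts. With the cells in the top 5% of doublet scores left out, the ratio was 17.7 (11.3 to 28.4). That filter kept 117 and 1380 cells and all 76 and 28 counts, so the part of doublets was not tested by it.
At E14.5 the same division gave no such difference. The 166 epithelial cells with a *Sox2* UMI had 5.17 CPM (2.58 to 9.25) and the 621 without had 7.0 (4.53 to 10.3), with overlapping intervals. Cells with *Krt15* at E16.5 had 16.1 (10.7 to 23.3) against 5.27 (4.15 to 6.60), but 1 cell held 16 of their 28 counts. Their summed level of mesenchymal markers was 429 CPM against 282. Cells with *Shh* had 3.08 (1.85 to 4.81) against 8.52 (6.80 to 10.5), with mesenchymal markers at 220 CPM against 346. The part of these transcripts in the differences was not tested. *Krt15* is also a marker of the epithelial list. The divisions by single genes were made after the data had been seen and their differences are given as description.

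**Figure D3:**
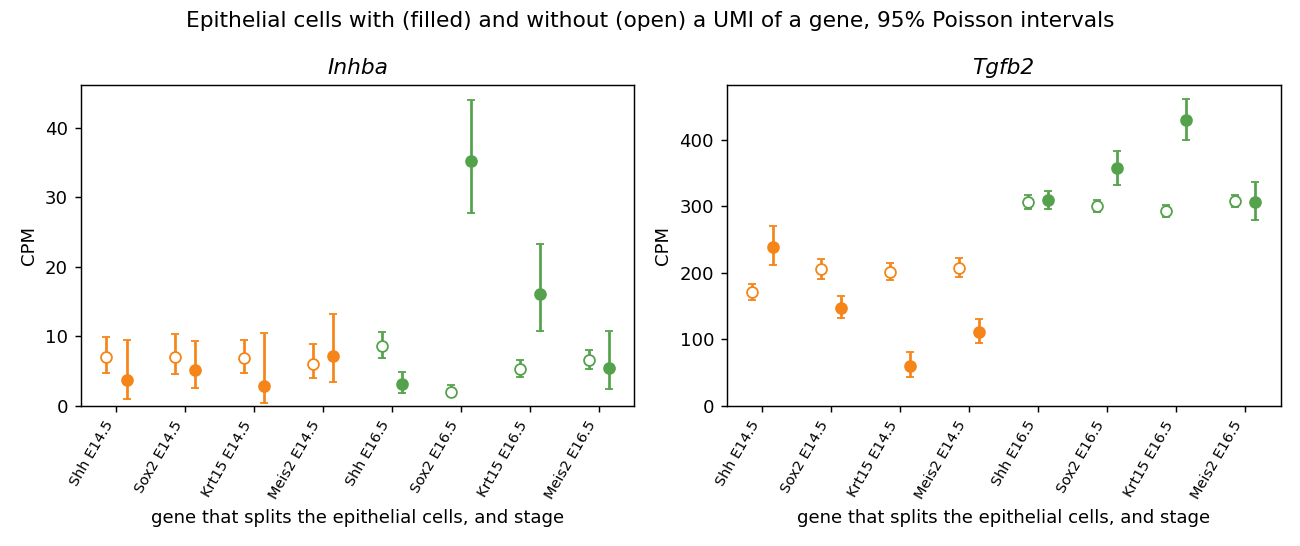
Levels of *Inhba* and *Tgfb2* in CPM (vertical axes, each from 0) in epithelial cells with (filled) and without (open) a UMI of *Shh*, *Sox2*, *Krt15* or *Meis2* at E14.5 and E16.5, with 95% Poisson intervals. The *Inhba* level of 35.1 in *Sox2* cells of E16.5 stands above all other values of that panel, and the *Tgfb2* level of *Krt15* cells changes from 58.9 at E14.5 to 430 at E16.5. Of the 747 counts behind the level of 430, 104 were in 1 cell.

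*Inhbb* (chr1:119415465-119422248, minus strand), which codes for the subunit of activin B, was close to the limit of detection. The mesenchyme of E11.5 gave 6 counts, that of E14.5 gave 5 and that of E16.5 gave 10. The epithelium of E14.5 gave 0 counts, for which the floor of 3 counts is 0.526 CPM, and that of E16.5 gave 16, or 0.990 (0.566 to 1.61). Of the 10 counts in E16.5 mesenchyme, 9 were in the 377 osteogenic cells. Of the 16 counts in E16.5 epithelium, 11 were in the 94 cells with a *Krt15* UMI, or 6.33 CPM (3.16 to 11.3) against 0.347 (0.113 to 0.809) in the cells without. The other lineages had at most 1 count, and no difference between the lineages of a stage was detectable at this depth.

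*Tgfb2* (chr1:186622792-186705989, minus strand), one of the TGF-beta ligands, had the reverse layer preference of *Inhba*. Its level in epithelium was 184 CPM at E14.5 (173 to 195, 1049 counts) and 308 at E16.5 (299 to 316, 4970 counts). In mesenchyme it was 59.3 at E11.5 (57.0 to 61.7), 54 at E14.5 (50.6 to 57.6) and 65.6 at E16.5 (61.9 to 69.4). Epithelium was 3.41-fold above mesenchyme at E14.5 (3.12 to 3.72) and 4.69-fold above it at E16.5 (4.40 to 5.0). Later epithelium was 1.67-fold above earlier epithelium (1.56 to 1.79), which is under 2-fold.
A *Tgfb2* UMI was found in 48.2% of the epithelial cells of E14.5 and in 66.5% of those of E16.5, and single cells of E16.5 held up to 104 counts. Thinned to 2000 UMIs per cell, these shares were 26.5% and 38.1%, against 11.1% and 11.52% in mesenchyme.
Endothelium had 50.3, 48.7 and 43.1 CPM at the 3 stages, and at E11.5 and E14.5 its interval overlapped that of mesenchyme. Immune cells had 2.48 at E11.5, from 1 count, and 90.3 at E14.5 (71.4 to 113). Muscle at E11.5 had 157 (120.2 to 203) from 57 cells, the highest level of that stage, above mesenchyme without overlap. Erythroid cells had 3.27, from 2 counts.

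*Tgfb2* was uneven within both layers. At E14.5 papilla cells had 18.6 CPM (14.6 to 23.3) and osteogenic cells 81.1 (68.7 to 95.1), a 4.37-fold difference (3.29 to 5.84). At E16.5 the papilla was at 46.8 (40.7 to 53.5) and the osteogenic cells at 81.8 (71.4 to 93.3), a 1.75-fold difference (1.44 to 2.12). The E14.5 difference rested on the marker list. With only the even-numbered markers of each list the fold was 0.880, and with the odd-numbered markers 8.79. Cartilage cells of E16.5 had 92.5 (73.3 to 115). At E11.5 the cells called by the cartilage list had 73.2 (66.3 to 80.6) and those called by the papilla list 37.9 (34.9 to 41.1).
E11.5 mesenchyme with an *Alx1* UMI had 108 CPM (100.2 to 116) and mesenchyme without 50.03 (47.7 to 52.4), and cells with a *Barx1* UMI had 43.9 (41.4 to 46.4) against 85.9 (81.4 to 90.6). Mesenchyme of E14.5 with a UMI of *Top2a*, a gene of dividing cells, had 33.5 (30.0 to 37.3) against 81.5 (75.1 to 88.2), a 2.43-fold lower level (2.13 to 2.78). At E11.5 and E16.5 the same division gave 1.20-fold and 1.17-fold lower levels. Cells with a *Top2a* UMI were deeper, with medians of 6608 against 3626 at E11.5, 4607 against 2669.5 at E14.5 and 8685.5 against 5092.5 at E16.5. At E11.5 they made up 4755 of the 5762 mesenchymal cells. The part of depth in the *Top2a* divisions was not tested.
In the epithelium of E14.5, cells with a *Krt15* UMI had 58.9 CPM (42.3 to 79.9) and cells without 201 (189 to 214), whereas at E16.5 they had 430 (399.6 to 462) against 293 (284 to 302). Of the 747 counts in the *Krt15* cells of E16.5, 104 were in 1 cell. These cells were deeper, at a median of 9012 UMIs against 6672, and their mesenchymal markers summed to 429 CPM against 282. The part of depth and of mesenchymal transcripts in this difference was not tested. Cells with a *Shh* UMI were above the others at E14.5, with 239 (211 to 270) against 171 (159 to 183), and did not differ beyond the intervals at E16.5, with 309 against 307.

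**Figure D4:**
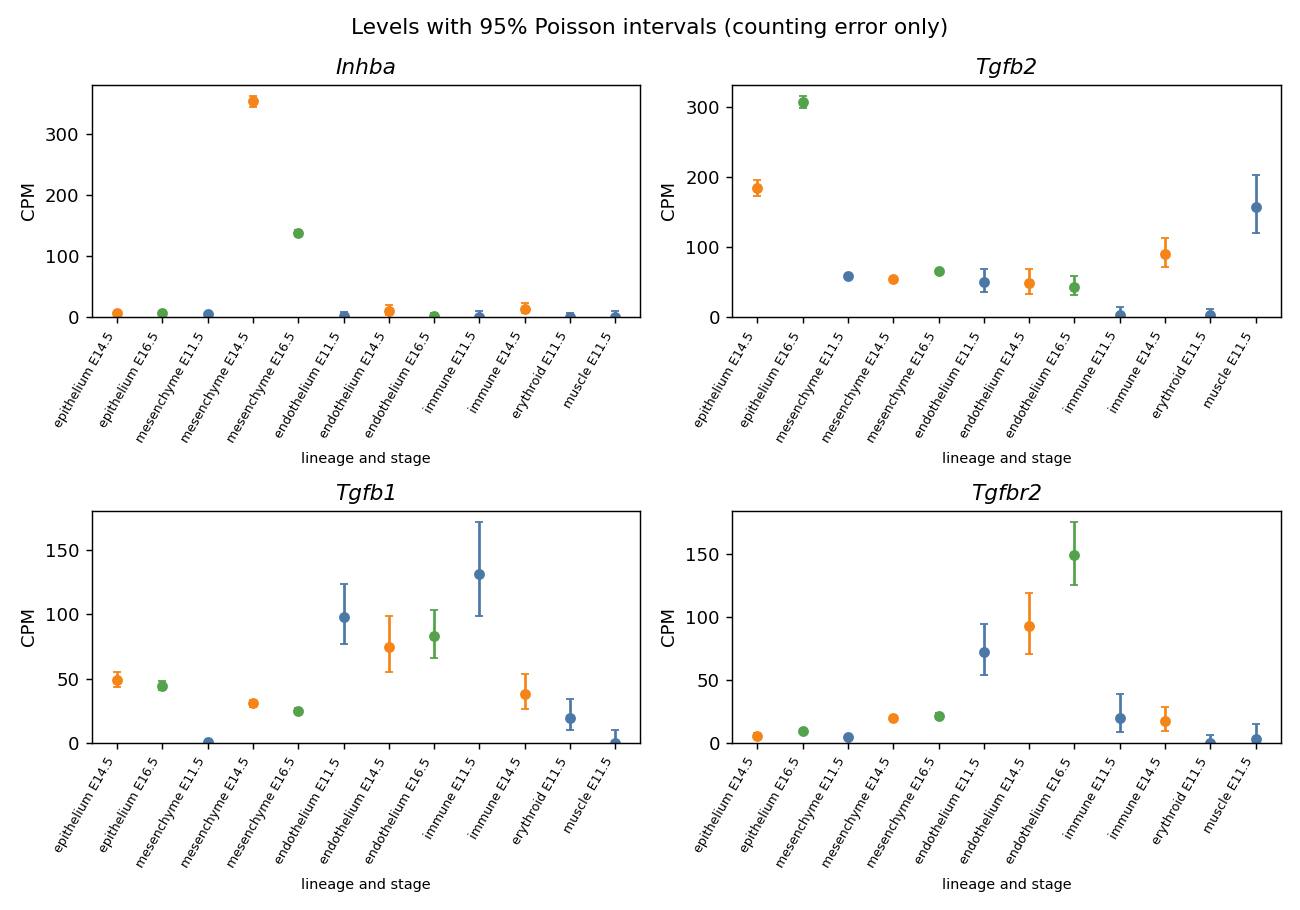
Levels of *Inhba*, *Tgfb2*, *Tgfb1* and *Tgfbr2* in CPM (vertical axes, each from 0) for each lineage and stage, coloured by stage, with 95% Poisson intervals. *Inhba* reaches 353 and 138 in mesenchyme of E14.5 and E16.5, *Tgfb2* 308 in epithelium, and *Tgfbr2* 149 in endothelium of E16.5.

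*Tgfb1* (chr7:25687002-25705077, plus strand), a ligand known from blood vessels and immune cells, was found there from E11.5. At that stage immune cells had 131 CPM (98.5 to 172) and endothelium 97.9 (76.6 to 123), with overlapping intervals. Erythroid cells followed with 19.6 (10.1 to 34.3). Mesenchyme had 0.976 (0.704 to 1.32) from 42 counts in 5762 cells, and muscle had 0 counts. Endothelium was 100.3-fold above mesenchyme (67.6 to 150.4) and immune cells 135-fold (88.1 to 207).
At E14.5 the lineages were much closer. Endothelium had 74.5 (55.1 to 98.5), epithelium 48.8 (43.2 to 54.8), immune cells 38.2 (26.3 to 53.7) and mesenchyme 30.6 (28.1 to 33.3). The interval of the immune cells overlapped those of both epithelium and mesenchyme. Mesenchyme at E14.5 was 31.3-fold above mesenchyme at E11.5 (22.9 to 44.0), and at E16.5 it stood at 24.5 (22.3 to 26.9).
At E16.5 endothelium was again the highest lineage, with 83.1 (65.8 to 103.6), followed by epithelium with 44.5 (41.3 to 47.9). Epithelium was 1.59-fold above mesenchyme at E14.5 and 1.81-fold above it at E16.5, both under 2-fold. Papilla and osteogenic cells did not differ beyond their intervals at either stage, with 44.8 and 40.8 at E14.5 and 23.3 and 26.4 at E16.5. Cells of E14.5 epithelium with a *Krt15* UMI had 20.1 (11 to 33.7) against 52.7 (46.6 to 59.5) in cells without.

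*Tgfb3* (chr12:86056745-86079041, minus strand), the remaining TGF-beta ligand, was sparse and, at E14.5 and E16.5, highest in mesenchyme among the lineages described. Mesenchyme had 4.3 CPM at E11.5 (3.70 to 4.97), 12.1 at E14.5 (10.5 to 13.8) and 18.4 at E16.5 (16.46 to 20.5), and these 3 intervals did not overlap. Epithelium had 1.75 and 2.54 at the later stages, which was 6.90-fold (3.68 to 14.6) and 7.24-fold (5.22 to 10.3) below mesenchyme. Endothelium had 0 counts at all 3 stages. Against the floor of 3 counts it was 2.65-fold below mesenchyme at E14.5 and 5.82-fold at E16.5, with lower interval limits of 2.14 and 4.71. Immune cells of E11.5 and E14.5 and erythroid cells also had 0 counts. Muscle of E11.5 had 5.25 (0.636 to 19.0) from 2 counts. At E11.5 the intervals of all other lineages overlapped that of mesenchyme, so no difference between lineages was detectable at that stage. Mesenchymal cells with a *Top2a* UMI had less *Tgfb3* than cells without, 6.72 (5.22 to 8.52) against 19.3 (16.3 to 22.7) at E14.5 and 12.1 (9.98 to 14.7) against 24.5 (21.4 to 27.9) at E16.5. The part of their greater depth was not tested. Osteogenic cells of E16.5 had 23.5 (18.1 to 30.0) and papilla cells 12.4 (9.39 to 16.1).

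Of the receptors, *Tgfbr2* (chr9:116084293-116175360, minus strand), the type II receptor of TGF-beta, was most unequal between lineages. Endothelium had 72.1 CPM at E11.5 (54 to 94.3), 92.8 at E14.5 (71.0 to 119) and 149 at E16.5 (126 to 176), the highest level of each stage. Mesenchyme had 4.37 (3.77 to 5.04), 19.4 (17.4 to 21.6) and 21.4 (19.3 to 23.6). Endothelium was 16.49-fold above mesenchyme at E11.5 (11.9 to 22.5), 4.78-fold at E14.5 (3.58 to 6.30) and 6.98-fold at E16.5 (5.72 to 8.48). Epithelium had 5.79 at E14.5 (3.98 to 8.13) and 9.72 at E16.5 (8.26 to 11.4), and was 3.35-fold and 2.20-fold below mesenchyme. Immune cells had 19.8 at E11.5 (8.57 to 39.1) and 17.4 at E14.5 (9.72 to 28.6), where their interval overlapped that of mesenchyme.
A *Tgfbr2* UMI was found in 42.6%, 31.4% and 54% of the endothelial cells at the 3 stages. The median depths of these cells were 5940, 3156.5 and 5742 UMIs. Thinned to 2000 UMIs per cell, these shares were 17.0%, 19.8% and 17.9%, with overlapping intervals. In the epithelium of E16.5, cells with a *Meis2* UMI had 23.3 (16.1 to 32.5) against 8.37 (6.96 to 9.99), and cells with a *Shh* UMI 13.8 (11 to 17.0) against 7.21 (5.64 to 9.08). Of the 34 counts in the *Meis2* cells, 7 were in 1 cell. Median depths were 10910 against 6560 UMIs for *Meis2* and 8577 against 6003.5 for *Shh*. The part of depth was not tested. At E14.5 the intervals overlapped in both divisions, with 4.32 against 6.26 for *Meis2* and 6.40 against 5.64 for *Shh*.

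*Tgfbr1* (chr4:47353222-47414931, plus strand), the type I receptor, was found in every lineage described. Mesenchyme had 64.7 CPM at E11.5 (62.4 to 67.2) and 41.3 and 41.2 at the later stages. Epithelium had 34.9 and 28.7 at those stages, endothelium 31.3, 35.0 and 27.4, and immune cells 44.6 and 62.5. At E14.5 the interval of endothelium overlapped those of the other lineages, and immune cells (47.0 to 81.6) stood above mesenchyme and epithelium. Muscle of E11.5 had 49.9 (30.0 to 77.9), which overlapped mesenchyme, and erythroid cells had 8.18 (2.66 to 19.1). In the comparisons of epithelium, endothelium and immune cells with mesenchyme, it passed 2-fold in endothelium at E11.5, which was 2.07-fold below mesenchyme (1.38 to 3.27). This difference was under 2-fold in 5 of 11 alternative settings of the processing. At E14.5 osteogenic cells had 55.3 (45.1 to 67.1) and papilla cells 29.7 (24.6 to 35.5).

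*Tgfbr3* (chr5:107106570-107289629, minus strand), which codes for betaglycan, the coreceptor that presents *Tgfb2* protein and inhibin to the other receptors, was sparse everywhere. Endothelium had 10.9, 7.61 and 9.47 CPM at the 3 stages from 8, 5 and 9 counts, and mesenchyme had 6.14 (5.42 to 6.92), 4.58 (3.64 to 5.70) and 5.12 (4.13 to 6.27). The intervals of endothelium and mesenchyme overlapped at every stage, and immune cells of E14.5 had 0 counts. Epithelium had 2.63 at E14.5 (1.47 to 4.34) and 1.36 at E16.5 (0.853 to 2.06), and was 3.76-fold below mesenchyme at E16.5 (2.34 to 6.28).
E11.5 mesenchyme with an *Alx1* UMI had 3.33 (2.11 to 5.0) against 6.67 (5.86 to 7.57), the opposite direction to *Tgfb2* and *Inhba* in the same cells.

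*Acvr2a* (chr2:48814109-48903269, plus strand), a type II receptor of activin, was broad and low. Mesenchyme had 19.9 CPM at E11.5 (18.6 to 21.3), 14.54 at E14.5 (12.8 to 16.4) and 13.2 at E16.5 (11.54 to 14.9). Epithelium had 16 at E14.5 (12.8 to 19.6) and 23.2 at E16.5 (20.9 to 25.7), so the layers overlapped at E14.5 and epithelium was 1.77-fold higher at E16.5 (1.5 to 2.08). Muscle of E11.5 had 76.1 (51.0 to 109), the highest level of the stage, from 29 counts. The interval of endothelium overlapped that of mesenchyme at all 3 stages, and immune cells had 1 count at E11.5 and 8 at E14.5.

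*Tgfbi* (chr13:56609523-56639562, plus strand) is named for its induction by TGF-beta and codes for an adhesive matrix protein. Mesenchyme had 31.1 CPM at E11.5 (29.5 to 32.8), 24.7 at E14.5 (22.4 to 27.1) and 69.8 at E16.5 (66.0 to 73.8), 2.83-fold above E14.5 (2.54 to 3.16). Epithelium had 0.701 at E14.5, from 4 counts, and 1.80 at E16.5, and was 35.2-fold (13.6 to 129.6) and 38.9-fold (26.9 to 58.3) below mesenchyme. Immune cells overlapped mesenchyme at E11.5, with 29.8 (15.4 to 52.0), and were 4.18-fold above it at E14.5 (3.29 to 5.26), with 103 (82.8 to 127).
Endothelium had 8.16, 7.61 and 5.26 CPM from 6, 5 and 5 counts. Cartilage cells of E16.5 had 162 (136 to 191), above papilla cells at 64.0 (56.9 to 71.7) and osteogenic cells at 51.4 (43.2 to 60.6). At E11.5, mesenchyme with an *Msx1* UMI had 22.9 (21.0 to 25.0) against 40.7 (38.0 to 43.6), the opposite direction to *Inhba*.

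The comparison of epithelium with mesenchyme asks how the signals are divided between the layers from which the tooth forms. *Tgfb2* was the only gene of the 10 past 2-fold in the epithelial direction. *Tgfb3*, *Inhba*, *Tgfbi* and *Tgfbr2* were past it in the mesenchymal direction at E14.5, and *Tgfbr3* joined them at E16.5. *Inhbb* had too few counts. Of the 9 genes with at least 50 counts, 1 was thus higher and 4 lower in epithelium at E14.5, where 9.18% and 12% of the 11411 genes measured passed in these directions. At E16.5 they were 1 and 5 of 9, against 10.2% and 12.2% of 12518. The median log2 fold of the 9 genes was -0.80 and -1.14, against 0.01 and 0.06 for all genes.
The wider pathway, 67 other genes of the branch, was taken from lists of latent complex proteins, ligands, receptors, antagonists, transducers and response genes. Of the 47 with enough counts at E14.5, 6 were higher and 12 lower in epithelium, and of 50 at E16.5, 6 were higher and 15 lower. *Fst*, which codes for the activin antagonist follistatin, was 10.8-fold higher in epithelium at E14.5 (9.67 to 12.1), with 248 CPM against 23.0. *Cdkn1a*, a cell cycle inhibitor, was 10.5-fold higher and *Acvr1b*, the type I receptor of activin, 3.60-fold. At E16.5 *Itgb6*, an integrin subunit that releases latent TGF-beta, was 25.3-fold higher (9.55 to 94.9), with 5.57 CPM. *Acvr1b* was 4.52-fold higher there and *Itgb8*, another such integrin subunit, 2.62-fold.
*Col1a1*, *Bgn* and *Eng* led the lower genes at E14.5, and *Col1a1*, *Thbs1* and *Eng* at E16.5. *Col1a1* and *Fbn2* are also among the markers that called the mesenchyme, so their direction follows from the call. *Thbs1*, an activator of latent TGF-beta, was 32.4-fold lower in epithelium at E16.5 (23.9 to 44.9). *Eng*, a coreceptor of vessels, had 1 count in epithelium at E14.5, a ratio of 39.0 with an interval of 6.87 to 1554.

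**Figure D5:**
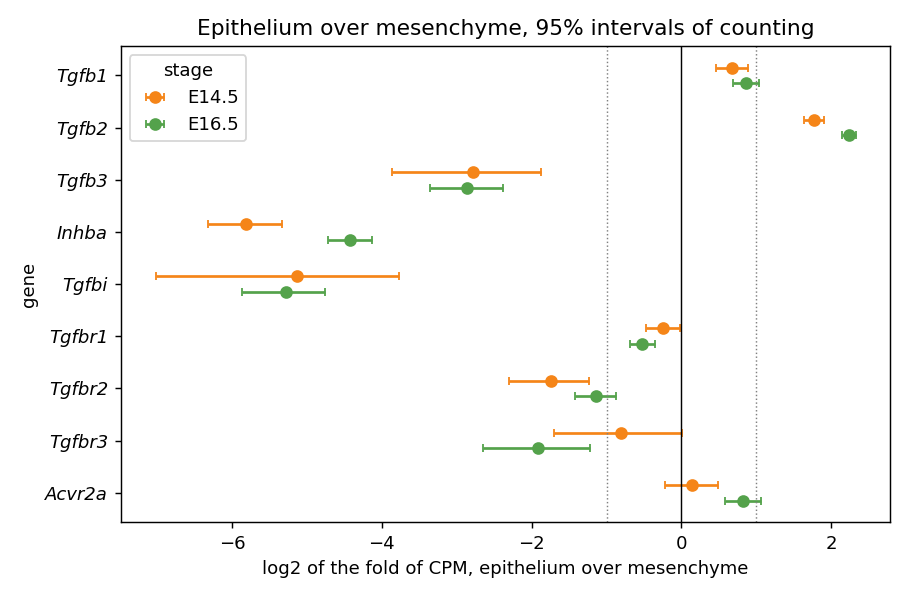
Fold of the level in epithelium over mesenchyme (horizontal axis, log2) for the 9 genes with at least 50 counts, at E14.5 and E16.5. Bars are 95% intervals of counting and dotted lines mark 2-fold. *Tgfb2* lies to the right at 3.41-fold and 4.69-fold, and *Inhba* and *Tgfbi* lie farthest to the left.

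Endothelium was compared with mesenchyme because vessels are a known site of TGF-beta receptors. *Tgfb1* and *Tgfbr2* were past 2-fold in endothelium at all 3 stages, and *Inhba* and *Tgfbi* in mesenchyme. *Tgfbr1* passed in mesenchyme at E11.5 and *Tgfb3* at the later stages. Of 9 genes, 2 were higher and 3 lower in endothelium at each stage. The shares of all genes were 12.7% and 15.8% of 12016 at E11.5, 11.51% and 17.6% of 10767 at E14.5 and 10.9% and 20.2% of 11389 at E16.5. The median log2 fold of the 9 genes was -0.17, -0.24 and -0.59, against -0.07, -0.10 and -0.16 for all genes. The *Inhba* ratio of E11.5, 3.06-fold lower in endothelium, rested on 1 count and its interval of 0.542 to 122 included 1. For *Tgfbi* the folds were 3.81 (1.75 to 10.4), 3.24 (1.38 to 10.0) and 13.3 (5.67 to 41.0).
Of the wider pathway, 12 of 47 were higher and 9 lower at E11.5, 6 and 14 of 47 at E14.5, and 5 and 17 of 49 at E16.5. *Eng* and *Acvrl1*, receptors of vessels that pair with TGF-beta receptors, were higher at every stage. *Eng* had 173, 175 and 198 CPM in endothelium and was 286-fold (186 to 454), 25.6-fold (19.6 to 33.3) and 26.6-fold (21.2 to 33.5) above mesenchyme. *Acvrl1* was 20.6-fold, 15.1-fold and 8.27-fold above it. *Nrros*, which holds latent TGF-beta on the surface of myeloid cells, was 60.8-fold higher at E11.5 (34.1 to 108). *Cd109*, a coreceptor, also passed 2-fold at E11.5, with 36.7 CPM against 2.07 in mesenchyme, and was 4.82-fold and 4.27-fold higher at the later stages. The summed immune list was 59.8 CPM in endothelium of E11.5 against 11.9 in mesenchyme, and its part in the *Tgfb1* and *Nrros* values was not tested.
*Fst* had 1 count in endothelium at each of the later stages, with ratios of 15.1 (2.69 to 598) and 27.0 (4.83 to 1070) in favour of mesenchyme. *Dcn*, a matrix proteoglycan that binds TGF-beta, had 0 counts in endothelium at E14.5 and was 15.1-fold lower against the floor of 3 counts. *Fbn1* and *Itgb5* at E11.5, *Thbs1* at E16.5 and the marker *Col1a1* at all stages were the other leading genes lower in endothelium.

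Immune cells were compared with mesenchyme as a known source of *Tgfb1*. At E11.5 *Tgfb1* and *Tgfbr2* were past 2-fold in immune cells and *Tgfb2*, *Tgfbr3* and *Acvr2a* in mesenchyme, though these last 3 had 1 count each in the 50 immune cells. Their ratios were 23.9 (4.29 to 945), 2.47 (0.440 to 98.1) and 8.04 (1.44 to 318). *Tgfbr2* was 4.54-fold higher in immune cells (1.93 to 9.13). At E14.5 *Tgfbi* was higher and *Tgfb3* and *Inhba* lower, and *Tgfb1* was at 1.25-fold (0.851 to 1.77). Of 9 genes, 2 were higher and 3 lower at E11.5, where 12.6% and 21.1% of 11984 genes passed, and 1 was higher and 2 lower at E14.5, where 11.2% and 28.6% of 10846 passed. The median log2 fold was -0.06 and -0.16, against -0.08 and -0.31 for all genes. At E11.5 *Tgfb3* and *Inhba* had 0 counts in immune cells, and the floor of 3 counts lay above their levels in mesenchyme. Their folds were therefore set to 1 and entered the median of the 9 genes as 0. Genes treated in this way are also in the median for all genes.
Of the wider pathway, 5 of 46 were higher and 17 lower at E11.5, and 4 of 47 were higher and 28 lower at E14.5. *Nrros* led the former at 131-fold (75.8 to 229), followed by *Thbs1* at 5.84-fold and *Acvrl1* at 5.02-fold. *Cdkn1a*, *Cd109* and *Tgif1*, a repressor of SMAD targets, led at E14.5 with 9.40-fold, 3.06-fold and 2.65-fold. The lower genes were led by *Acvr2b*, *Fbn2* and *Fstl1* at E11.5 and by *Fbn2*, *Fbn1* and *Col1a1* at E14.5.

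Between stages, the mesenchyme of E14.5 was past 2-fold above that of E11.5 in *Tgfb1*, *Tgfb3*, *Inhba* and *Tgfbr2*, and below it in none of the 9 genes with enough counts. *Tgfbr2* was 4.44-fold higher (3.71 to 5.33) and *Tgfb3* 2.82-fold (2.30 to 3.45). Among 12750 genes 10.5% were higher and 11.2% lower. The remaining 5 genes were all lower by less than 2-fold, of which *Tgfbr1* was 1.57-fold lower (1.44 to 1.70) and *Acvr2a* 1.37-fold (1.19 to 1.58). The median log2 fold of the 9 genes was -0.13, against -0.20 for all genes.
Of the wider pathway 23 of 50 were higher and 5 lower. These included 7 of the 10 latent complex genes with enough counts, 7 of the 9 antagonists and 7 of the 9 response genes, and 0 of the 14 transducers were higher. *Tagln* and *Acta2*, contractile genes used as response genes, were 30.0-fold (23.2 to 39.4) and 27.4-fold (19.5 to 39.7) higher, and *Dcn* 19.7-fold. *Acta2* and *Tagln* are also markers of the pericyte list, whose summed level in mesenchyme was 38.4, 107 and 187 CPM at the 3 stages, and *Col1a1* of the mesenchyme list. Their part in these counts was not tested. *Acvr2b* was 5.80-fold lower (4.93 to 6.86), *Tgif1* 2.74-fold and *Tgfbr3l* 2.62-fold. Because whole mandible was dissected at E11.5 and the bud later, a change of cells and a change within cells cannot be told apart here. The same holds for fewer cells of a kind and less RNA in each.
From E14.5 to E16.5 the mesenchyme changed less. *Tgfbi* was past 2-fold higher and *Inhba* lower, while 7.38% of 12187 genes were higher and 2.22% lower. The median of the 9 genes was 0.14 against 0.16. Of 50 wider pathway genes 6 were higher and 0 lower. *Cdkn1a* was 6.61-fold higher, *Bambi*, a decoy receptor, 6.0-fold (5.55 to 6.48) and *Thbs1* 2.92-fold.
In the epithelium 0 of 7 genes passed 2-fold in either direction between E14.5 and E16.5, where 7.61% of 11309 genes were higher and 2.09% lower. The median was 0.53 against 0.16. Of 47 wider pathway genes 6 were higher and 5 lower. *Fst* was at 61.5 CPM at E16.5 after 248 at E14.5, a 4.04-fold lower level (3.72 to 4.38). *Bambi* was 4.25-fold higher, *Itgb6* 3.53-fold and *Dcn* 3.35-fold, and *Thbs1* was 16.4-fold lower (11.8 to 23.2) and *Ccn2* 3.18-fold.

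Between osteogenic and papilla mesenchyme, *Tgfb2* at E14.5 was the only gene past 2-fold. At E14.5 1 of 7 genes was higher in osteogenic cells and 0 lower, against 5.62% and 3.35% of 7951 genes, and at E16.5 0 of 8 passed, against 2.57% and 2.92% of 9180. The medians were -0.13 and 0.34, against -0.01 and -0.07. Of the wider pathway 6 of 36 were higher and 2 lower at E14.5, and 8 of 44 were higher and 2 lower at E16.5. *Fst* was 2.70-fold lower in osteogenic cells at E14.5 (1.69 to 4.52) and 4.77-fold at E16.5 (3.14 to 7.54). *Ltbp1*, which anchors latent TGF-beta in the matrix, was 3.22-fold higher at E14.5 (2.29 to 4.54), beside *Col1a1* and *Itgb5*, and *Tgif2* was 2.03-fold lower. *Ccn2*, *Timp1* and *Tagln* were 5.36-fold, 4.34-fold and 4.33-fold higher at E16.5, and *Tgfbrap1* was 2.02-fold lower.

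The genes whose levels were most like each of the 10 were found by the Pearson correlation of log2(CPM + 10) over the 12 combinations of lineage and stage, among 14655 genes. The 12 points share 3 matrices, 1 per stage, and the values describe likeness only. *Inhba* was closest to *Thy1* (0.99), *Col6a1* (0.99) and *Fgf3* (0.98), of which *Fgf3*, a growth factor of the papilla, is also a marker of the papilla list. *Tgfb2* was closest to *Aopep* (0.97), *Agap1* (0.94) and *Dst* (0.93), *Tgfb3* to *Drp2* (0.995), *Rims1* (0.99) and *Tmem45a* (0.99), and *Tgfb1* to *Ptbp3*, *Reep5* and *Itsn2* (each 0.91), where 1 would be an identical pattern.
*Tgfbr2* was closest to *Layn*, *Zfp652os* and *Lxn* (each 0.97), *Tgfbr1* to *Mrps15*, *Denr* (each 0.95) and *Chchd1* (0.94), *Tgfbr3* to *Mest*, *C430049B03Rik* and *Plagl1* (0.96, 0.95 and 0.95), and *Acvr2a* to *Fbxl18*, *Gm37986* and *Zfp784* (each 0.94). *Tgfbi* had the least close partners, *Lsp1* (0.88), *Parp3* and *Dnajc12* (each 0.86). For *Inhbb*, whose values spanned 0.20 on this log2 scale, the nearest were *Gm47061*, *Gm15728* and *Bicdl1* (0.96, 0.95 and 0.93), and these rest on a few counts.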

How the data were processed

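Cells of wild type mouse mandibles and lower incisor buds were sequenced by the authors as single cells at 3 stages. The 10 labelled samples were deposited as 1 matrix of raw UMI counts per stage, which the authors made with Cell Ranger 4.0.0 on the mm10 (GRCm38) reference, with no normalization. Barcodes could not be assigned to samples, so each stage was 1 sample and no test was run.

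A cell was kept with 700 or more genes and no more than 20% mitochondrial UMIs (Python 3.11.15, numpy 2.4.6, scipy 1.17.1, pandas 2.3.3), which left 47513863, 27765839 and 40024102 UMIs in the order of the stages. Each cell was given the lineage with the largest share of its marker list detected, from at least 3 UMIs of at least 2 markers. Cells in which another list reached over 0.5 of the leading share were set aside as mixed (112, 279 and 269 cells), and cells below the minimum as uncalled (399, 138 and 72). Erythroid cells were called from at least 5% erythroid UMIs, and neurons and pericytes only where no other list passed. Mesenchyme was divided by 3 further lists in the same way. Doublets were otherwise left in, and the 5% of cells with the highest Scrublet scores (scanpy 1.11.5) were left out as an alternative.

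Levels are summed counts per 1000000 UMIs (CPM) with exact Poisson 95% intervals, shares have exact binomial intervals, and folds have exact conditional binomial intervals, all for counting error only. A lineage at 0 counts was set to a floor of 3 counts, so that its fold holds for that floor only. A fold of at least 2 with at least 50 counts over both groups was called. Named genes were the 10 genes themselves, at most 3 genes of the wider pathway lists in each direction of a comparison, and the 3 genes nearest in pattern to each. Genes outside this rule were chosen after their values were seen. The genes and lists were chosen with earlier results of these data known, and the lineage rule was set after the data were seen. In all, 12 comparisons were computed under 11 alternatives. The reads were counted at transcript 3′ ends, so levels were not compared between genes.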

Additional observations from a re-analysis of the deposited data

Results flagged for a closer look

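Muscle of E11.5 and immune cells of E16.5 entered none of the comparisons. In these 2 groups, 4 levels lay above the intervals of all compared lineages of their stage and above what a count of 0 would allow (a floor of 3 counts). Levels past the same limits in other groups outside the comparisons, such as mixed and uncalled cells, are not listed. In the 57 muscle cells of E11.5, *Tgfb2* was at 157 CPM and *Acvr2a*, the type II activin receptor, at 76.1, where the floor was 7.87. In the 24 immune cells of E16.5, too few to be compared, *Tgfbi* was at 134 CPM (95% Poisson interval 92.7 to 187) and *Tgfbr1* at 86.6 (54.3 to 131), where the floor was 11.8.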

How the results depend on the processing

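No paired analysis was possible because the matrices pool the numbered samples and their barcodes cannot be assigned to them, and for the same reason no replicate could be left out. For the genes taken by name, the 41 folds that passed 2-fold as reported were recomputed under 11 settings, which gave 451 folds. The folds of the wider pathway genes and of the divisions by single genes were not among them. The setting with no count filter changes only which genes have enough counts, so it left the 41 folds unchanged. The minimum of counts was not applied to the recomputed folds. With each cell thinned to 2000 UMIs, *Tgfb1* in endothelium (25 counts) and in immune cells (35) over mesenchyme of E11.5 fell below that minimum. So did *Tgfbr3* in epithelium over mesenchyme of E16.5 (31 counts). These folds are still among those kept. Of the 451, 426 kept a fold of at least 2 and 25 were under 2-fold, and 3 of those 25 changed direction. Those 3 were *Tgfb2* in osteogenic over papilla cells of E14.5, at 0.880 with the even-numbered markers, *Tgfbr3* in immune cells over mesenchyme of E11.5, at 1.33 with each cell thinned to 2000 UMIs, and *Inhba* in endothelium over mesenchyme of E11.5, at 1.27 with each cell weighted equally. The last 2 rest on 1 count each, and the cause of the first was not tested. The folds of *Inhba* between mesenchyme of E14.5 and E11.5 ranged from 25.6 to 90.2, and those of *Tgfb2* between epithelium and mesenchyme from 2.74 to 3.64 at E14.5 and from 4.2 to 4.75 at E16.5.

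Of the 10 genes, 5 were past 2-fold between endothelium and mesenchyme of E11.5, and this number was 3 with the odd-numbered markers, 1 with thinned cells, 3 with each cell weighted equally and 3 with 10 CPM added. The folds of *Tgfb1* (lowest 9.83) and *Tgfbr2* (lowest 5.71) in this comparison were past 2 in 11 of 11 settings, but with thinned cells *Tgfb1* kept 25 counts, under the minimum of 50, and so was not counted. Between immune cells and mesenchyme it was 3 after 5 at E11.5 with thinned cells, and 5 after 3 at E14.5 with each cell weighted equally. Between epithelium and mesenchyme of E14.5 it was 3 after 5 with 10 CPM added, and between the epithelia of E16.5 and E14.5 it was 1 after 0 with no count filter. Between osteogenic and papilla cells of E14.5 it was 1, and 2 with the even-numbered markers, 2 with thinned cells, 2 with each cell weighted equally and 3 with no count filter. For these cells at E16.5 it was 0, and 3 with the odd-numbered markers, 3 with the even-numbered markers and 1 with no count filter. The shares of all genes past 2-fold are given above for the reported setting only. The numbers under the other settings are therefore not set against all genes and are no result about the 10 genes. Of all levels, 22 were at least 50 CPM, and 34 with CPM taken without haemoglobin, mitochondrial and ribosomal protein genes. Where a cell needed 1000 genes and no more than 10% mitochondrial UMIs, the immune group of E11.5 held 49 cells. Epithelium of E11.5, with 9 cells, was below what this depth can describe.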
